A study of Arabidopsis thaliana with 48 samples.

Results

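The comparison of the svp flc ft tsf soc1 mutant, called quintuple, with the wild type (WT, Col accession) at 5 weeks rests on 3 libraries a side, 6 of the 48 columns of a table of reads per gene from Arabidopsis thaliana shoot apices. Samples were enriched for the apical meristem, and each library came from 15 pooled apices of plants kept at 21 °C in short days (8 h of light and 16 h of dark) until 5 weeks after sowing. The quintuple line carries mutations in 5 flowering-time genes together, and the labels name no allele and no other difference from WT. The same 2 genotypes were also sampled at 3, 4 and 6 weeks, and the chr4-2 and qem2 lines of the series entered the fit for its estimate of spread alone. All 27206 genes of the table were members, and 19566 had enough reads to be tested.

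Flowering of Arabidopsis is held back by SVP and FLC, MADS-box repressors that bind the regulatory DNA of FT and SOC1. FT and its close relative TSF are mobile proteins made in leaves in long days, and they act in the apex with the bZIP factor FD to switch on SOC1, FUL and the floral identity genes. In short days the FT route is weak, and gibberellin and the age-dependent SPL factors, which are targets of the microRNA miR156, carry most of the signal.

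Each library had between 10025554 and 19397664 reads assigned to genes. Levels are CPM, reads scaled to the TMM-adjusted size of each library. The test was edgeR's quasi-likelihood F test, and genes with a Benjamini-Hochberg adjusted p below 0.05 over 19566 genes are the called genes. The labels call the 3 libraries of a group independent biological replicates and say no more of how the pools were grown or collected. The p-values rest on a spread between pools estimated over 47 libraries in 16 groups, not over these 6 alone. WT replicate 3 stood apart from the other 2 WT libraries. The SD over genes of its log2 CPM minus the mean of those 2 was 0.596, the highest of 45 libraries so measured. Across genes its log2 CPM correlated at 0.970 and 0.967 with WT replicates 1 and 2, which correlated at 0.983 with each other, and at 0.974 to 0.975 with the 3 quintuple libraries. Its levels of SVP (107 CPM) and of QQS (0.138 CPM) were near those of the other WT libraries. Its level of FLC (3.79 CPM) was below that of all other WT and quintuple libraries of 5 weeks. Its difference from WT replicates 1 and 2 correlated across genes, which are not independent, with the change in WT from 4 to 6 weeks (Pearson r = 0.434 and Spearman rho = 0.334 over 19566 genes). The column of quintuple replicate 3 was equal at every gene to a column labelled qem2 at 5 weeks, which was left out. Its 10134894 reads are 92.4% of the mapped reads that the deposited read table gives for quintuple replicate 3 at 5 weeks, a share that lay between 91.8% and 92.6% in the other 5 libraries. The counts of genes called at 5 weeks are given with and without each of these libraries.

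At 5 weeks 500 genes were higher in quintuple (2.56% of genes tested) and 842 were lower (4.3%), and the median log2 fold change of all genes was -0.00026. Of these 1342 genes, 1096 had groups of libraries that did not overlap, against 23.6% of all genes tested. The change was at least 2-fold in 139 of the raised and 523 of the lowered genes. The 3 quintuple libraries lay above all 12 WT libraries of 3 to 6 weeks in 267 of the 500 raised genes (53.4%, against 4.48% of all genes) and below all 12 in 225 of the 842 lowered genes (26.7%, against 2.33%). The counts without overlap and the shares above or below all 12 use the libraries of the call itself. They are a description, here and in the fits that follow. Without WT replicate 3 the change was at least 2-fold in 156 raised and 770 lowered genes, without quintuple replicate 3 in 107 and 300, and without both in 141 and 590. The quintuple libraries then lay above all WT libraries in 297, 144 and 222 of the raised genes (45.2%, 65.8% and 50.8%, against 5.15%, 4.81% and 6.3% of all genes). They lay below all WT libraries in 332, 170 and 301 of the lowered genes (26.5%, 40.6% and 33.6%, against 3.41%, 3.58% and 4.37%). Of the calls of these 3 fits, 1903 of 1912, 599 of 638 and 1333 of 1333 had groups that did not overlap, against 43.4%, 31.2% and 53.3% of all genes.

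The counts moved with the libraries. Without WT replicate 3 they were 657 higher and 1255 lower, and 1144 of the 1342 calls (85.2%) were shared. Without WT replicate 1 they were 272 and 458, without WT replicate 2 they were 188 and 364, and without quintuple replicate 1, 2 or 3 they were 316 and 608, 332 and 409, and 219 and 419. Without replicate 3 of both genotypes they were 437 and 896. A fit of the 6 libraries alone called 93 and 93. A fit of the 5-week WT and quintuple libraries alone with WT replicate 3 left out, chosen after seeing the data, called 702 and 1253. With a replicate block within each week the counts were 800 and 1132. WT replicate 3 was the lowest WT library in 632 of the 842 lowered genes (75.1%), against 36.5% of all genes, and nearer to the quintuple mean than to the other WT libraries in 477 (56.7%, against 54.7%). In the 500 raised genes it was the highest WT library in 298 (59.6%, against 35.8% of all genes), and nearer to quintuple in 100 (20%). The plot of calls with each library left out shows that the highest counts were reached when WT replicate 3 was absent.

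**Figure D1:**
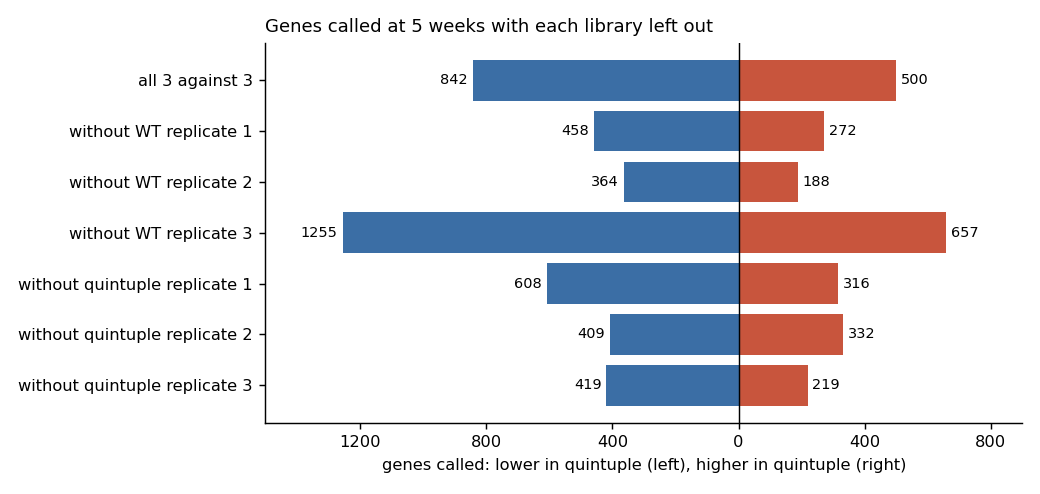
Number of genes called at 5 weeks (x axis) with all 6 libraries and with each library left out in turn; bars to the right are genes higher in quintuple and bars to the left genes lower in quintuple. The counts run from 188 higher and 364 lower without WT replicate 2 to 657 higher and 1255 lower without WT replicate 3.

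The mutated genes were read first. SVP (AT2G22540, chromosome 2, 9579647 to 9583901 in TAIR10.1) stood at 145, 117 and 107 CPM in WT and at 55.3, 50.4 and 53.6 CPM in quintuple. The groups were far apart, and SVP fell by 1.21 on the log2 scale (SE 0.14, adjusted p = 3.31e-07). FLC (AT5G10140) was at 14.3, 14.6 and 3.79 CPM in WT and 8.09, 8.06 and 6.65 CPM in quintuple, so that WT replicate 3 was the lowest of the 6 and the gene was not called (log2 fold change -0.50, adjusted p = 0.50). The log2 fold change of FLC without WT replicate 3 was -0.92 (adjusted p = 0.0955). In the fit of the 5-week WT and quintuple libraries alone with that library left out, FLC was called lower (adjusted p = 0.0068). Reads of SOC1 (AT2G45660) were higher in the mutant, at 9.32, 8.21 and 10.4 CPM against 4.87, 2.01 and 7.03 CPM (log2 fold change 0.97, SE 0.24, adjusted p = 0.0111), a call lost without quintuple replicate 3 (adjusted p = 0.0581) or WT replicate 2 (adjusted p = 0.122). FT had 0 reads in WT and 2 in quintuple, and TSF had 0 and 1, and neither was tested. The labels give no allele, and a mutation can leave a transcript, so reads at these loci do not check the genotype. Among the 1000 tested genes that flank the 5 loci, 100 on each side of each, 75 were called (7.5%), against 6.86% of all genes. BXL3 (chromosome 5, 3014894 to 3018342), the gene with the smallest adjusted p, lies near FLC (3173382 to 3179448). AT1G65500 (chromosome 1, 24357749 to 24358732), called lower, lies near FT (24331373 to 24333999). Whether these changes come from DNA linked to a mutated locus was not tested.

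Most tested genes of a list of flowering promoters were called higher in the mutant. All gene lists used here were chosen with earlier results of these data known. Counts of called members therefore describe a list and do not test it. Of the 10 tested members of the list of SOC1 relatives and other promoters, 7 rose and none fell, against 2.56% of all genes called higher, and the median log2 fold change was 1.56. FD, the bZIP partner of FT, was at 27.1, 37.7 and 30.4 CPM in WT and 67.4, 73.7 and 68.9 CPM in quintuple. The groups did not overlap, and FD rose by 1.14 on the log2 scale (SE 0.12, adjusted p = 6.26e-08). Its paralogue FDP rose from 4.51 ± 0.65 to 11.7 ± 1.3 CPM (mean ± SD, n = 3; log2 fold change 1.36, adjusted p = 0.00016). FUL, a MADS-box gene of the inflorescence and later the fruit, was at 0.928, 0.805 and 1.72 CPM in WT and 4.33, 5.70 and 6.07 CPM in quintuple. WT replicate 3 was the highest WT library and still lay below the lowest quintuple library (log2 fold change 2.17, SE 0.37, adjusted p = 0.00025).

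AGL42, AGL19 and AGL14, MADS-box relatives of SOC1, also rose. AGL42 was at 11.1, 12.0 and 17.8 CPM in WT and 33.7, 35.8 and 43.3 CPM in quintuple (log2 fold change 1.45, SE 0.20, adjusted p = 8.04e-06). AGL19 rose from 12.5 ± 2.0 to 25.8 ± 1.2 CPM (adjusted p = 0.000336). AGL14 rose from 0.973 ± 0.354 to 3.21 ± 0.77 CPM (adjusted p = 0.0208), a call lost without quintuple replicate 1 or 3 or WT replicate 1 or 2 (adjusted p up to 0.132). AGL71 and AGL72 had no read in WT at 5 weeks and up to 0.578 CPM in quintuple, and did not pass the test (adjusted p = 0.0902 and 0.0628). CO, the photoperiod factor that activates FT in leaves, was at 0.696, 1.11 and 2.20 CPM in WT and 5.50, 7.90 and 4.82 CPM in quintuple (log2 fold change 2.16, SE 0.36, adjusted p = 0.00019). AGL24, a MADS-box promoter related to SVP, was at 69.2 to 75.4 CPM in WT and 82.3 to 85.6 CPM in quintuple and was not called (adjusted p = 0.149). The count of 7 stayed at 6 or 7 with each library left out.

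The SPL genes, which promote the change from juvenile to adult growth and then flowering, were next. Of 9 tested, 4 rose and none fell, against 2.56% of all genes called higher, with a median log2 fold change of 0.69. SPL9 was at 42.0, 39.8 and 47.3 CPM in WT and 78.2, 94.0 and 99.0 CPM in quintuple (log2 fold change 1.07, SE 0.12, adjusted p = 2.66e-07). SPL4 was at 0.619, 0.604 and 1.31 CPM in WT and 3.56, 4.45 and 5.11 CPM in quintuple (log2 fold change 2.31, SE 0.36, adjusted p = 8.21e-05). Both genes had quintuple libraries well above the highest WT library. SPL15 rose from 14.6 ± 1.5 to 26.4 ± 4.2 CPM (adjusted p = 0.000134), and SPL2 from 38.0 ± 4.7 to 57.0 ± 2.6 CPM (adjusted p = 0.00304). SPL3, SPL5, SPL6, SPL10 and SPL11 were not called, with adjusted p between 0.125 and 0.757. The microRNA loci that target this family have no row in the table. The count of 4 was 4 or 5 with each library left out.

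The 250 bases before the annotated starts of FUL and SPL4, the genes with the largest called rise in the promoter and SPL lists, are shown, since SPL proteins recognise DNA with a GTAC core. Both are read 5′ to 3′ on the gene's strand from RefSeq assembly TAIR10.1, FUL at chr5:24506270-24506519 (minus strand) and SPL4 at chr1:19806013-19806262 (plus strand). Capitals mark the motifs searched, here GTAC.
FUL: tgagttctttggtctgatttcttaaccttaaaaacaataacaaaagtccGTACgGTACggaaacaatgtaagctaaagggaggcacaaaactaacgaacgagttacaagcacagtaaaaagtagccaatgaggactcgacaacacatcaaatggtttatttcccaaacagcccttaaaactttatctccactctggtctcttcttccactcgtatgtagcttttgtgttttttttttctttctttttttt
SPL4: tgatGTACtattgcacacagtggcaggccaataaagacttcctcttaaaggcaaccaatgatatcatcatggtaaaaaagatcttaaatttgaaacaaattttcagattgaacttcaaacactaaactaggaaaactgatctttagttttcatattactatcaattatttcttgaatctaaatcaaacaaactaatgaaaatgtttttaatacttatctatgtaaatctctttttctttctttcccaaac
The FUL window held 2 matches to GTAC and the SPL4 window 1. Over all genes with a window, GTAC was present in 34.6% of 19489, in 39.5% of 499 raised genes and in 36.0% of 842 lowered genes. The CArG box, the motif of MADS-box factors such as SVP, FLC and SOC1, was present in 2.68% of all windows, 2.61% of those of raised genes and 2.49% of those of lowered genes, and in none of the windows of the 7 raised flowering promoters. A match is a description of the letters and not of binding.

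Among other regulators of the shoot and the inflorescence, TFL1, which keeps the inflorescence meristem from becoming a flower, was at 1.86, 3.42 and 3.86 CPM in WT and 6.47, 8.58 and 8.86 CPM in quintuple (log2 fold change 1.38, SE 0.32, adjusted p = 0.0062). This call was lost without WT replicate 1 (adjusted p = 0.0683). AGL15, a MADS-box repressor of flowering, rose from 6.36 ± 1.21 to 16.4 ± 3.2 CPM (adjusted p = 0.000121). MAF5, an FLC relative, fell from 2.59 ± 1.60 to 0.808 ± 0.226 CPM (adjusted p = 0.00376), and the call was lost without WT replicate 3, its highest library (adjusted p = 0.0813). TFL1, AGL15 and MAF5 were the called members of 17 tested repressors, 2 higher and 1 lower, against 2.56% and 4.3% of all genes. The median log2 fold change of the 17 was -0.05. UFO, an F-box co-factor of the floral identity factor LFY, rose from 1.63 ± 0.18 to 4.35 ± 0.24 CPM (adjusted p = 0.00133). It was the 1 called member of 9 tested identity genes, against 2.56% of all genes called higher. LFY itself was at 4.96 to 6.44 CPM in WT and 6.33 to 7.03 CPM in quintuple (adjusted p = 0.55).

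SPL8, an SPL gene outside miR156 control that acts in anther and gynoecium development, was at 15.5, 19.8 and 27.3 CPM in WT and 52.3, 58.1 and 48.1 CPM in quintuple (log2 fold change 1.34, SE 0.18, adjusted p = 6.12e-06). TEL2, a gene for a Mei2-like RNA-binding protein, was at 1.47, 1.61 and 1.65 CPM in WT and 7.69, 8.42 and 9.25 CPM in quintuple (log2 fold change 2.41, SE 0.23, adjusted p = 1.25e-08). For both genes the groups did not overlap. AT4G34400, annotated as an AP2/B3-like transcription factor, rose from 30.4 ± 2.3 to 74.3 ± 13.8 CPM (adjusted p = 4.55e-08). SRF3, which encodes a leucine-rich repeat receptor kinase, rose from 56.8 ± 4.8 to 110 ± 2 CPM (adjusted p = 1.67e-08). TEL2, AT4G34400 and SRF3 are among the 10 genes of smallest adjusted p, where SVP and AT4G19380 fell and BXL3, QQS, PAP16, FD and SPL9 rose as well.

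**Figure D2:**
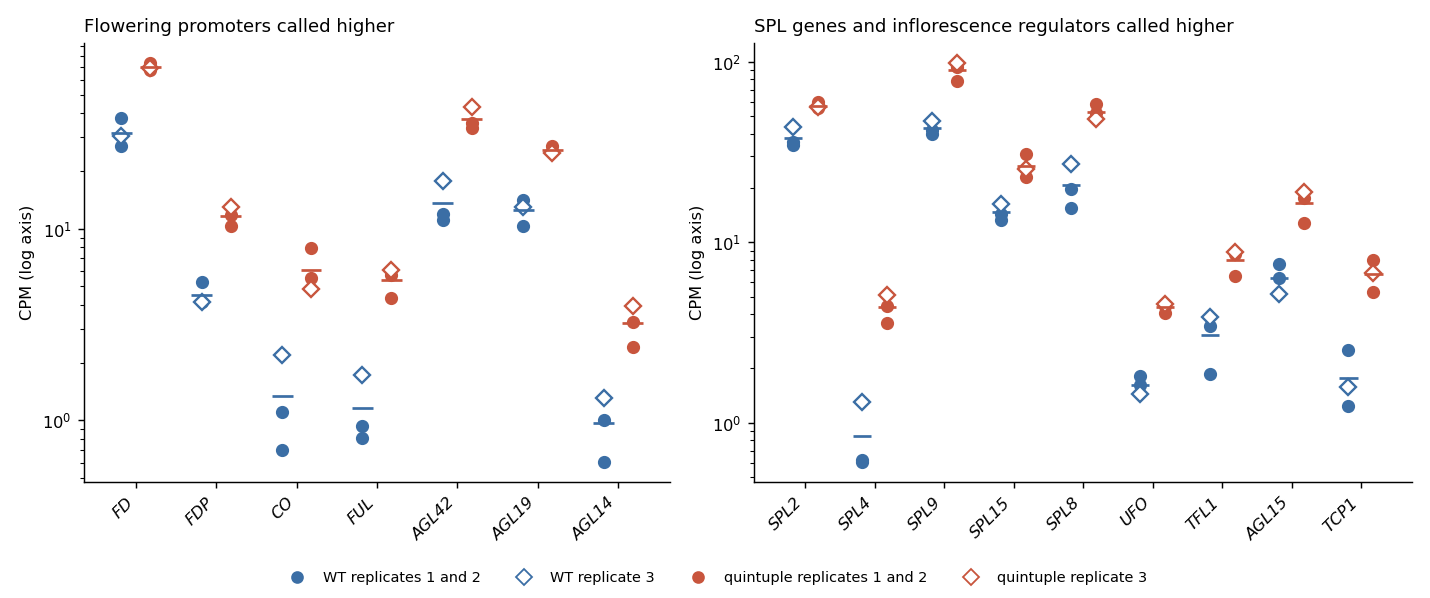
Level in each library at 5 weeks (CPM, log axis) of the 7 raised promoters of flowering (left panel) and of SPL genes and inflorescence regulators called higher (right panel); points are libraries, horizontal bars are group means of 3, and open diamonds are replicate 3 of each genotype. The 3 quintuple points of each gene lie above its 3 WT points, as for FD, where the lowest quintuple library is at 67.4 and the highest WT library at 37.7 CPM.

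BRC1, BRC2 and HB40, which are known from the arrest of axillary buds, rose, as did NCED3, a gene of abscisic acid synthesis. BRC1, a TCP factor that represses bud outgrowth, was at 0.851, 0.604 and 2.82 CPM in WT and 11.5, 8.42 and 7.90 CPM in quintuple (log2 fold change 2.63, SE 0.33, adjusted p = 2.16e-06). Its paralogue BRC2 was at 0.464, 0.805 and 0.482 CPM in WT and 3.26, 4.50 and 3.57 CPM in quintuple (log2 fold change 2.71, SE 0.42, adjusted p = 6.52e-05). The groups were well separated for both. TCP1, the third member of this clade of TCP genes in Arabidopsis, was at 1.24, 2.52 and 1.58 CPM in WT and 5.29, 7.95 and 6.74 CPM in quintuple (log2 fold change 1.93, SE 0.27, adjusted p = 1.26e-05). HB40, a homeobox gene that BRC1 is known to activate in buds, was at 0, 0 and 0.413 CPM in WT and 3.97, 1.67 and 3.47 CPM in quintuple (log2 fold change 4.19, adjusted p = 0.000128). NCED3, an enzyme of abscisic acid synthesis downstream of these homeobox factors, was at 0.309, 0 and 0.276 CPM in WT and 2.90, 2.09 and 3.57 CPM in quintuple (log2 fold change 3.68, SE 0.58, adjusted p = 9.03e-05).

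HB21 and HB53, the other homeobox genes of that route, were looked at after the values of HB40 had been seen. HB21 was at 0.309, 0.302 and 0.138 CPM in WT and 2.04, 1.41 and 1.93 CPM in quintuple (log2 fold change 2.83, SE 0.62, adjusted p = 0.0036). HB53 was at 2.01, 1.11 and 0.620 CPM in WT and 3.00, 2.04 and 2.79 CPM in quintuple and was not called (adjusted p = 0.141). Among 10 tested genes of organ boundaries and branching, 3 were called higher, BRC1, BRC2 and LOB, against 2.56% of all genes, and the median log2 fold change was 0.49. The fit of the 6 libraries alone called 1 of the 10. LOB, a boundary gene, rose from 3.44 ± 0.54 to 7.98 ± 2.21 CPM (adjusted p = 0.0135), and the call was lost without quintuple replicate 3 (adjusted p = 0.0884) or WT replicate 2 (adjusted p = 0.0859). CUC1, CUC2, CUC3 and LAS, which act where axillary meristems form, were not called, with log2 fold changes of 0.17 to 0.75. In a fit of the 6 libraries alone BRC2 and NCED3 kept their calls (adjusted p = 0.0161 and 0.0311), and BRC1 and HB40 did not (adjusted p = 0.0604 and 0.0643).

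The window before HB40, the homeobox gene with the largest rise, is shown with CACGTG, the core bound by many bZIP and bHLH factors, and GTAC in capitals. It was read from TAIR10.1 at chr4:17316442-17316691 (minus strand).
HB40: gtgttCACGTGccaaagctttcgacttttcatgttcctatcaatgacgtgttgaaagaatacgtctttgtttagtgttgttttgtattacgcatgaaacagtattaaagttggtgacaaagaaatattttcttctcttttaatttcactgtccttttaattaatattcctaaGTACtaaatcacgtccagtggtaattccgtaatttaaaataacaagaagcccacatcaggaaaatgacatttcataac
It held 1 match to CACGTG and 1 to GTAC. The core CACGTG was present in 7.46% of all 19489 windows, in 5.21% of those of raised genes and in 6.77% of those of lowered genes.

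**Figure D3:**
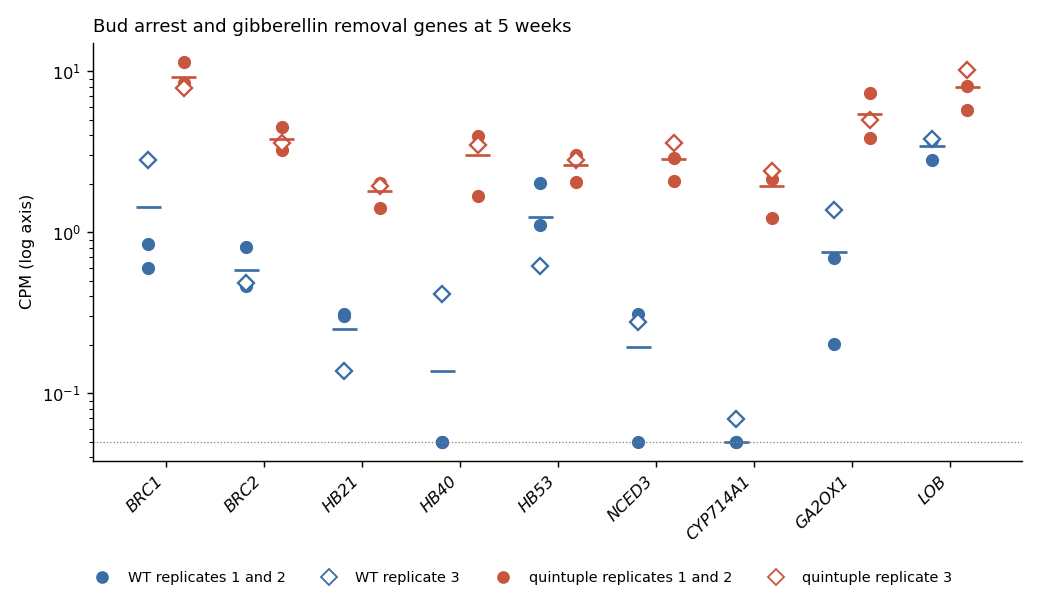
Level in each library at 5 weeks (CPM, log axis) of genes known from axillary buds, NCED3, LOB and genes of gibberellin removal; points are libraries, bars are group means of 3, open diamonds are replicate 3, and values of 0 are drawn on the dotted line at 0.05 CPM. For BRC1 the WT libraries reach 2.82 CPM and the quintuple libraries start at 7.90 CPM, while HB53 has nearly touching groups (2.01 against 2.04 CPM).

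GA2OX1 and CYP714A1, which remove active gibberellin, also rose. GA2OX1, a gibberellin 2-oxidase, was at 0.696, 0.201 and 1.38 CPM in WT and 7.28, 3.87 and 5.01 CPM in quintuple (log2 fold change 2.73, SE 0.41, adjusted p = 4.58e-05). CYP714A1, a cytochrome P450 that deactivates gibberellin, had 1 read in WT and 90 in quintuple, at 0, 0 and 0.0689 CPM against 1.22, 2.15 and 2.41 CPM. The ratio of its reads per library size was 68.5, with a 95% counting interval of 12.0 to 2734, and its adjusted p was 8.21e-05. GA2OX1 was the 1 called member of 25 tested gibberellin genes, against 2.56% of all genes called higher. The median log2 fold change of the 25 was 0.16. With the replicate block within each week 3 of the 25 were called higher and 1 lower, and the fit of the 6 libraries alone called 0 of 23. GA3OX1, which makes active gibberellin, was at 14.3 to 16.2 CPM in WT and 19.3 to 26.0 CPM in quintuple and did not pass the test (adjusted p = 0.365). The DELLA repressors GAI, RGA and RGL1 were not called, with log2 fold changes between -0.13 and 0.16.

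The largest rises by log2 fold change came from genes with few or no reads in WT. QQS, an orphan gene that influences the split of carbon and nitrogen between starch and protein, was at 0.387, 0.302 and 0.138 CPM in WT and 35.0, 16.7 and 40.9 CPM in quintuple (log2 fold change 6.79, SE 0.59, adjusted p = 6.37e-09). BXL3, a gene for a beta-xylosidase of the cell wall, was at 0.774, 0.906 and 0.482 CPM in WT and 26.5, 21.0 and 22.4 CPM in quintuple (log2 fold change 5.04, SE 0.32, adjusted p = 1.57e-13), the smallest adjusted p of all genes. BXL3 lies near FLC on chromosome 5, and the part of linkage to that locus was not tested. PAP16, annotated as a purple acid phosphatase, rose from 0.105 ± 0.0305 to 3.28 ± 0.43 CPM (adjusted p = 9.64e-07). AT1G34440, uncharacterized, had no WT read and 68 quintuple reads, at least 15.7-fold higher with 3 reads over the WT group as the floor. The nearby genes AT5G37940 and AT5G37950, annotated as a zinc-binding dehydrogenase and a UDP-glycosyltransferase, rose together to 2.87 ± 0.75 and 2.89 ± 0.68 CPM from 0.0516 ± 0.0893 and 0.137 ± 0.158 CPM. The other genes among the 15 largest rises by the same rule were AT1G22460, AT2G40440, AT3G27025, AT3G50560, AT5G44630 and SQP1, whose means were at most 0.379 CPM in WT and 4.10 CPM or less in quintuple. SQP1 lost its call without WT replicate 2 (adjusted p = 0.0722). AT3G27025 lost its call without WT replicate 3 and quintuple replicate 3 together (adjusted p = 0.0698).

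The make-up of the apex samples was checked against markers. STM had 952 to 1321 reads per WT library and 965 to 1941 per quintuple library, and KNAT1 762 to 1003 and 840 to 1458. WUS and CLV3, which mark few cells of the meristem centre, had 0 to 5 and 3 to 10 reads in WT and 5 to 16 and 7 to 20 in quintuple. Markers of flowers were at or near 0: AP1 and AG had no read in the 6 libraries, and AP3, PI, SEP1, SEP2 and SEP3 had at most 4 in any library. Of 17 meristem genes KNAT2 rose (adjusted p = 0.0399) and CLV1 fell (adjusted p = 0.0204), against 2.56% of all genes called higher and 4.3% called lower. The call of KNAT2 was lost on leaving out any one of the 6 libraries (adjusted p up to 0.167). That of CLV1 was lost without quintuple replicates 2 or 3 or WT replicates 1 or 2 (adjusted p up to 0.143). The summed level of 16 photosynthesis genes of leaf mesophyll was 18438, 13560 and 15611 CPM in WT and 15811, 11736 and 13062 CPM in quintuple. None of the 16 was called by edgeR, 0 had an unadjusted p under 0.05 and DESeq2 called 0, and their log2 fold changes lay between -0.88 and -0.0044 with a median of -0.26. In bulk apices, fewer cells of a type and less RNA per cell cannot be told apart.

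Many genes in the list for glucosinolates, the sulphur-rich defence chemistry of the cabbage family, were lower in the mutant. This list too was chosen with earlier results known. Of 17 tested, 9 fell and none rose, against 4.3% of all genes called lower, and the median log2 fold change was -1.86. BCAT4, the first enzyme of methionine chain elongation, was at 898, 646 and 121 CPM in WT and 184, 97.2 and 36.6 CPM in quintuple (log2 fold change -2.38, SE 0.68, adjusted p = 0.0278). CYP83A1, a P450 of the aliphatic core pathway, was at 647, 525 and 129 CPM in WT and 182, 115 and 59.9 CPM in quintuple (log2 fold change -1.86, SE 0.53, adjusted p = 0.0272). In both, WT replicate 3 lay inside the range of the quintuple libraries and WT replicates 1 and 2 far above it. MYB29, an activator of the aliphatic branch, was at 102, 90.2 and 17.8 CPM in WT and 25.8, 17.7 and 8.86 CPM in quintuple (adjusted p = 0.0321).

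MYB34, an activator of the indolic branch, was at 21.8, 46.1 and 13.4 CPM in WT and 6.62, 8.79 and 7.90 CPM in quintuple, with no overlap (log2 fold change -1.79, SE 0.46, adjusted p = 0.0157). FMOGS-OX1, which modifies the side chain, fell from 96.2 ± 62.4 to 18.7 ± 8.3 CPM (adjusted p = 0.00863), and SUR1, a C-S lyase of the core pathway, from 186 ± 78 to 93.4 ± 20.8 CPM (adjusted p = 0.0212). CYP79F1, CYP79B3 and MAM1 were the other 3 called, and CYP79B3 lost its call with the replicate block within each week (adjusted p = 0.0503). WT replicate 3 was nearer to quintuple than to the other WT libraries in 13 of the 17 genes. Without WT replicate 3 the called genes numbered 12 and the median was -2.13. Without WT replicate 1, WT replicate 2, or quintuple replicate 1, 2 or 3 they numbered 2, 0, 7, 2 and 0, and the median stayed between -1.85 and -1.58. The fit of the 6 libraries alone called 0 of 16 (median -1.88). The myrosinases TGG1 and TGG2, which break glucosinolates down, were not called (log2 fold changes -0.29 and -0.27).

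Some salicylic acid and stress genes fell as well. Of 14 tested salicylic acid genes 3 fell and none rose, against 4.3% of all genes called lower, with a median log2 fold change of -1.37. The count was 1 without quintuple replicate 1 or 2 or WT replicate 1 or 2, 2 without replicate 3 of either genotype, and 0 of 11 in the fit of the 6 libraries alone. PR2, a glucanase induced by salicylic acid, was at 17.8, 22.5 and 5.44 CPM in WT and 0.509, 2.41 and 0.0964 CPM in quintuple (log2 fold change -3.76, SE 0.85, adjusted p = 0.0058). PAD4, a lipase-like regulator of this pathway, was at 19.0, 20.8 and 32.3 CPM in WT and 6.36, 7.80 and 13.2 CPM in quintuple (adjusted p = 0.0371). The groups did not overlap for either. NIMIN1, which binds the salicylic acid co-activator NPR1, fell from 2.90 ± 2.11 to 0.603 ± 0.258 CPM (adjusted p = 0.0243). PR2 kept its call with each library left out (adjusted p 0.00154 to 0.0408). PAD4 lost it without quintuple replicates 1 or 2 or any WT replicate (adjusted p up to 0.16), and NIMIN1 on leaving out any one library other than WT replicate 3 (adjusted p up to 0.192). PR1 was below 0.4 CPM in all 6 libraries, and ICS1, which makes salicylic acid, was not called (log2 fold change 0.08).

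Of 13 genes of rapid stress response 3 fell, against 4.3% of all genes called lower, with a median log2 fold change of -1.78. The count was 1 or 2 with each library left out and 2 in the fit of the 6 libraries alone. CML38, a calmodulin-like gene, was at 7.04, 9.86 and 4.06 CPM in WT and from 1.06 to 1.22 CPM in the 3 quintuple libraries (log2 fold change -2.60, SE 0.62, adjusted p = 0.00706), and the call was lost without WT replicate 2 (adjusted p = 0.0507). ZAT10, a zinc-finger repressor, was at 6.50, 4.13 and 5.72 CPM in WT and 0.662, 0.419 and 0.674 CPM in quintuple (adjusted p = 0.0313). ERF5, an ethylene response factor, was at 7.43, 2.52 and 5.79 CPM in WT and 1.99, 1.36 and 2.31 CPM in quintuple (adjusted p = 0.0421). ZAT10 lost its call on leaving out any one library other than WT replicate 3 (adjusted p up to 0.124), and ERF5 on leaving out any one other than WT replicate 2 (adjusted p up to 0.213). The summed level of the 13 genes was 115, 96.7 and 346 CPM in WT and 54.7, 57.8 and 77.0 CPM in quintuple, so that WT replicate 3 was the highest. TCH3, WRKY33 and WRKY40 were highest in WT replicate 3 (147, 71.7 and 23.7 CPM) and were not called. None of 15 jasmonate and wounding genes was called by edgeR (median -1.29), 5 had an unadjusted p under 0.05 and DESeq2 called 1, and their summed level was 766 to 2112 CPM in WT and 465 to 746 CPM in quintuple.

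CRK7, a cysteine-rich receptor-like kinase, gave the fall with the smallest adjusted p among the 15 largest. It was at 3.25, 5.63 and 5.85 CPM in WT and 0.0509, 0.209 and 0.0964 CPM in quintuple (log2 fold change -5.23, SE 0.65, adjusted p = 2.16e-06), and each WT library was above each quintuple library. The window before it is shown with TTGAC, the core bound by WRKY factors of defence, and GTAC in capitals, read from TAIR10.1 at chr4:12125414-12125663 (plus strand).
CRK7: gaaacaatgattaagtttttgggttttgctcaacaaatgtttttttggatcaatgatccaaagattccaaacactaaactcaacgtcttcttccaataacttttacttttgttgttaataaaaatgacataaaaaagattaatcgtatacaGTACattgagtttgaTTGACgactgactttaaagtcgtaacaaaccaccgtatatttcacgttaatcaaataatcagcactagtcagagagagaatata
It held 1 match to TTGAC and 1 to GTAC. The core TTGAC, a motif added after the falls had been seen, was present in 44.6% of 19489 windows, in 51.5% of those of lowered genes and in 45.5% of those of raised genes. Among called list members it was present in 1 of 9 glucosinolate genes, 0 of 3 salicylic acid genes and 3 of 3 rapid stress genes. It was also present in 5 of the 7 raised flowering promoters.

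**Figure D4:**
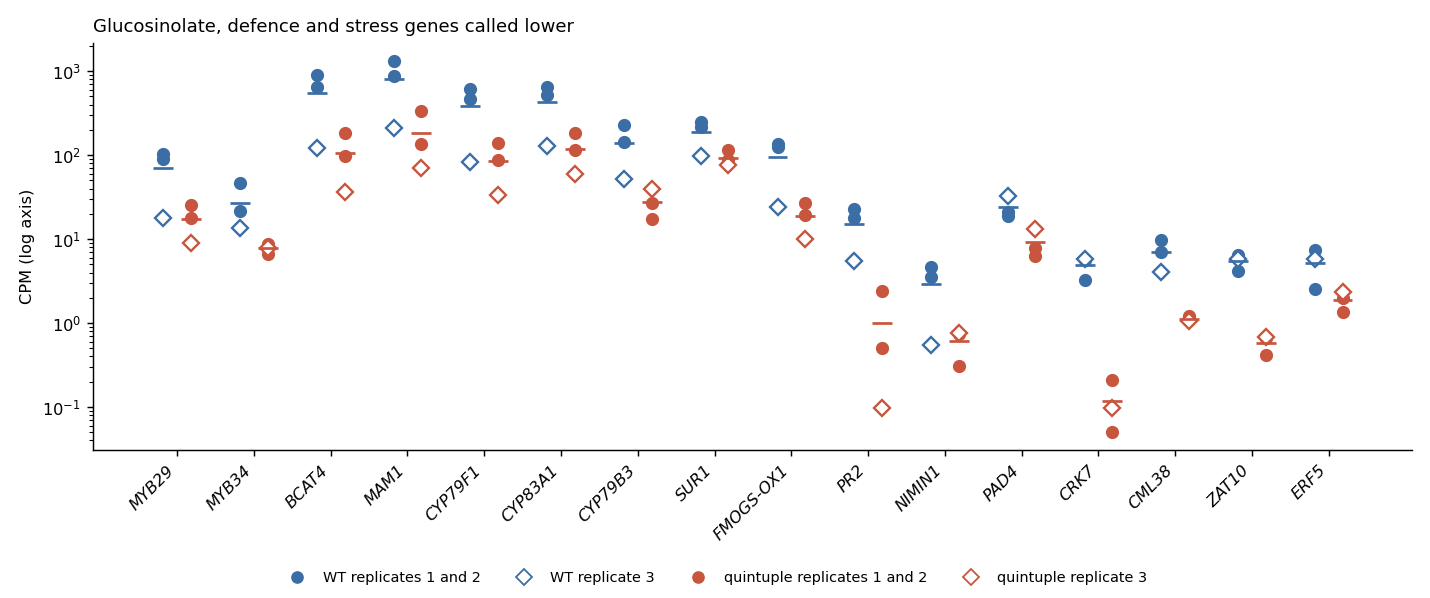
Level in each library at 5 weeks (CPM, log axis) of 16 glucosinolate, defence and stress genes called lower; points are libraries, bars are group means of 3, and open diamonds are replicate 3 of each genotype. WT replicate 3 lies with the quintuple libraries for BCAT4 (121 CPM) and CYP83A1 (129 CPM) and with the other WT libraries for CRK7 (5.85 CPM) and ZAT10 (5.72 CPM).

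The 15 largest falls among genes with a mean of at least 1 CPM and no overlap differed in which WT library carried them. PP2-B14, annotated as a phloem protein, was at 0.309, 0.704 and 15.1 CPM in WT and had no read in quintuple. It was at least 87.9-fold lower, with 3 reads over the quintuple group as the floor, and without WT replicate 3 its adjusted p was 0.186. AT2G18690, CML37, CYP706A2 and NAC061 also had most of their WT reads in replicate 3 and lost their calls without it (adjusted p = 0.196, 0.257, 0.339 and 0.209). AT2G18690 and NAC061 lost theirs without quintuple replicate 1 or 2 as well. CML37 and CYP706A2 also lost theirs without any one quintuple library or with no count filter. So did CML37 without WT replicate 1 and CYP706A2 without WT replicate 2. RSL2, scpl30, JAL33, AT1G66860, AT3G28830 and AT4G19370 were lower in WT replicate 3 than in the other 2 WT libraries. RSL2, a basic helix-loop-helix factor known from root hairs, was at 3.64, 4.53 and 0.138 CPM in WT and 0.102, 0 and 0 CPM in quintuple (adjusted p = 0.00997). AT4G19370, AT3G28830 and AT1G66860 kept their calls with each library left out. scpl30, JAL33 and RSL2 lost theirs without WT replicate 2 (adjusted p = 0.13, 0.0512 and 0.0518), and RSL2 also without quintuple replicate 2 (adjusted p = 0.0602). MYB15, a regulator of lignin in defence, was at 2.40, 6.24 and 14.0 CPM in WT and at most 0.289 CPM in quintuple, and it lost its call without any one quintuple library (adjusted p up to 0.0927). AT2G32140 and PCR2 lost theirs without WT replicate 2 or 3 or any one quintuple library (adjusted p up to 0.105 and 0.244).

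Vascular genes gave a mixed picture, with 1 of 13 called higher and 2 lower, against 2.56% and 4.3% of all genes. Of 13 tested, SUC2, the sucrose loader of phloem companion cells, rose from 16.9 ± 1.2 to 26.0 ± 0.9 CPM (adjusted p = 0.0404), a call lost on leaving out any one of the 6 libraries (adjusted p up to 0.148). XCP1, a protease of dying xylem vessels, was at 20.7, 21.9 and 3.65 CPM in WT and 7.94, 6.12 and 5.11 CPM in quintuple (log2 fold change -1.23, SE 0.36, adjusted p = 0.0341). VND6, a master factor of vessel identity, fell from 2.21 ± 1.69 to 0.690 ± 0.417 CPM (adjusted p = 0.0159). WT replicate 3 lay below the 3 quintuple libraries for XCP1 and among them for VND6. XCP1 lost its call without WT replicate 1 or 2 or quintuple replicate 2 or 3 (adjusted p up to 0.26), and VND6 without WT replicate 2 or quintuple replicate 2 or 3 (adjusted p up to 0.311). Without WT replicate 3, 8 of the 13 fell, 1 fell without WT replicate 1, and without WT replicate 2 or quintuple replicate 2 or 3 the count was 0, against 3 with DESeq2. The summed level of the list was 471, 521 and 265 CPM in WT and 374, 338 and 277 CPM in quintuple, and its part in other changes was not tested.

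In the cytokinin list 2 of 14 genes fell, against 4.3% of all genes called lower, and the count was 1 to 3 with each library left out and 0 in the fit of the 6 libraries alone. IPT3, which makes cytokinin in response to nitrate, was at 12.0, 12.5 and 2.14 CPM in WT and 3.11, 1.15 and 0 CPM in quintuple (log2 fold change -2.44, SE 0.54, adjusted p = 0.00492), and ARR5, a response regulator induced by cytokinin, fell from 26.8 ± 10.6 to 12.2 ± 3.3 CPM (adjusted p = 0.0183). The groups overlapped for both through WT replicate 3, and ARR5 lost its call without quintuple replicate 1 or 3 or WT replicate 1 or 2 (adjusted p up to 0.125). NIR1, the nitrite reductase of nitrogen assimilation, fell from 108 ± 33 to 74.0 ± 4.3 CPM (adjusted p = 0.0376), and the call was lost without WT replicate 2 (adjusted p = 0.478) or any one quintuple library. ATX1, a histone methyltransferase, rose from 37.0 ± 5.0 to 52.4 ± 5.1 CPM (adjusted p = 0.0323). It was the 1 called member of 21 polycomb, trithorax and CHD genes, against 2.56% of all genes called higher. Of the 21, 20 had a log2 fold change above 0 (median 0.16, against -0.00026 over all genes), and the direction of the list was not tested. The call of ATX1 was lost without quintuple replicate 1 or 3 or WT replicate 1 or 2 (adjusted p up to 0.181). OLEO1, an oil-body gene of seeds, rose from 0.0975 ± 0.0849 to 0.906 ± 0.554 CPM (adjusted p = 0.0216) and lost its call without 4 of the 6 libraries (adjusted p up to 0.119). No member was called in the heat shock, cold and abscisic acid, circadian clock, flavonoid, auxin and cell cycle lists. In those 6 lists the unadjusted p of edgeR was under 0.05 for 1, 0, 1, 1, 1 and 2 genes in that order, and DESeq2 called 0, 0, 1, 0, 0 and 0.

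The calls at the other weeks were set beside those at 5 weeks. A change called at 1 week and not at another need not differ between them, and tests of that difference are given further on. Of the 500 raised genes, 36 were also raised at 3 weeks (7.2% of them and 80% of the 45 raised then, 0.23% of all genes), 216 at 4 weeks (43.2%, and 14.7% of 1471, 7.52% of all genes) and 214 at 6 weeks (42.8%, and 38.8% of 551, 2.82% of all genes). Of the 842 lowered genes, 11 were lowered at 3 weeks (1.31%, and 32.4% of 34, 0.174% of all genes), 247 at 4 weeks (29.3%, and 26.1% of 946, 4.83% of all genes) and 288 at 6 weeks (34.2%, and 42.4% of 680, 3.48% of all genes). At 4, 5 and 6 weeks together 124 genes were higher and 119 lower. In the fit without WT replicate 3 of week 5 the raised genes shared with weeks 3, 4 and 6 numbered 38, 248 and 224 of 657, and the lowered genes 14, 399 and 418 of 1255. Without quintuple replicate 3 they numbered 30, 109 and 150 of 219, and 7, 155 and 152 of 419. The weeks share no libraries.

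QQS and BXL3 were raised at every week. QQS had means of 0.269, 0.251, 0.275 and 0.281 CPM in WT from 3 to 6 weeks and of 22.0, 26.7, 30.9 and 19.6 CPM in quintuple, and BXL3 of 0.633, 1.46, 0.720 and 0.895 CPM and of 18.6, 25.0, 23.3 and 17.5 CPM. FD climbed in both lines, from 8.66 to 24.2, 31.7 and 33.9 CPM in WT and from 17.2 to 44.2, 70.0 and 102 CPM in quintuple. The means of SPL4 and FUL parted late, although the difference of the effect at 5 weeks from that at 3 weeks passed the test for SPL4 and not for FUL. SPL4 had 0.851, 0.681, 0.844 and 2.08 CPM in WT and 0.335, 0.942, 4.37 and 15.0 CPM in quintuple, and FUL 0.566, 0.715, 1.15 and 1.37 CPM in WT and 0.579, 1.47, 5.37 and 23.3 CPM in quintuple. BRC1 had parted by 4 weeks, with 0.399, 1.61, 1.43 and 4.08 CPM in WT and 1.53, 9.07, 9.26 and 10.5 CPM in quintuple. CYP83A1 declined in both lines, from 590 and 706 to 434 and 227 CPM in WT and from 566 and 435 to 119 and 37.0 CPM in quintuple.

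**Figure D5:**
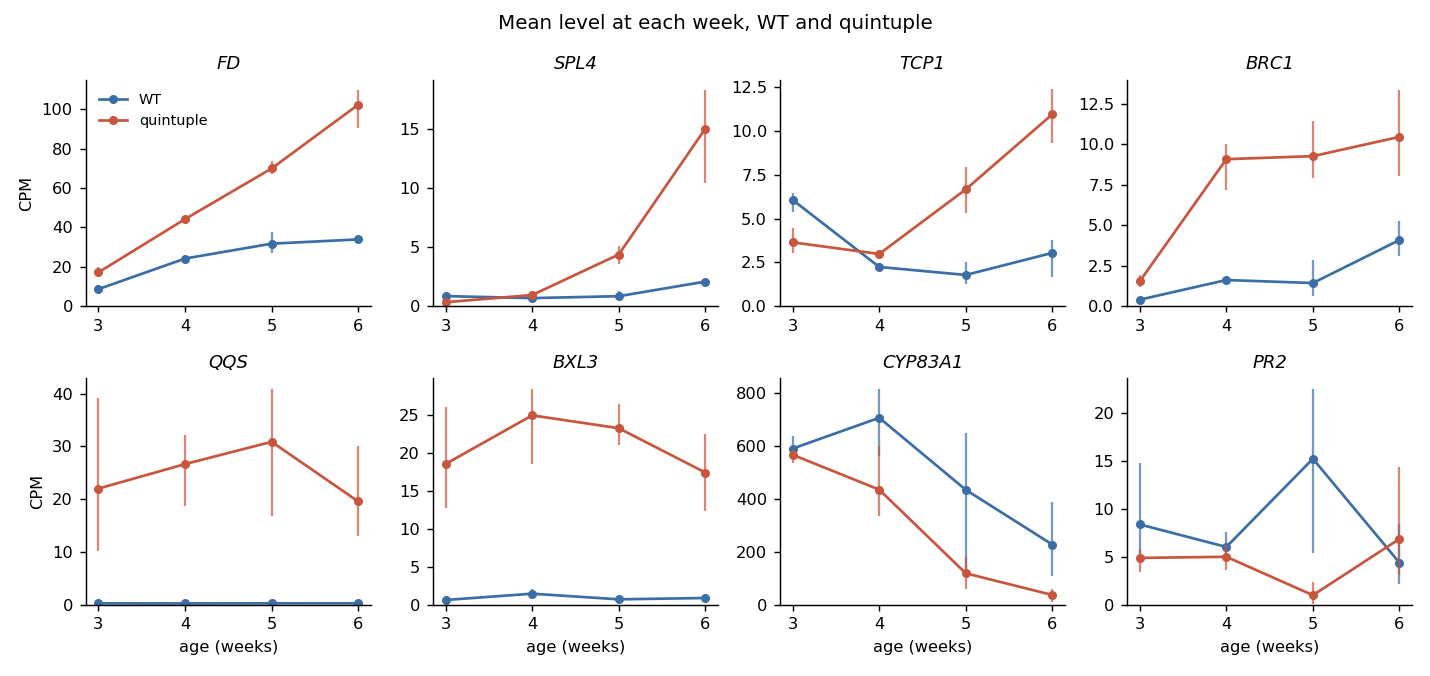
Mean level (CPM, linear axes from 0) at 3, 4, 5 and 6 weeks in WT and quintuple for 8 genes; points are means of 3 libraries and vertical lines run from the lowest to the highest library. The gap in CPM between the lines of FD and of SPL4 is widest at 6 weeks (102 against 33.9 and 15.0 against 2.08 CPM), BRC1 separates by 4 weeks (9.07 against 1.61 CPM), QQS and BXL3 are apart at every week, and the WT lines of CYP83A1 and PR2 are long at 5 weeks, where WT replicate 3 is the lowest WT library.

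The effect of the mutations at 5 weeks was tested against that at each other week, and the count of genes that differed moved with WT replicate 3. The difference of the effects passed in 14 genes against 3 weeks (0.0716% of genes), in 1 against 4 weeks (0.00511%) and in 5 against 6 weeks (0.0256%), while 1490, 2273 and 1295 genes had an unadjusted p under 0.05 in edgeR. Without WT replicate 3 these counts were 334, 18 and 48, without quintuple replicate 3 they were 5, 0 and 4, and without both 158, 3 and 13. With the replicate block they were 141, 162 and 19, and DESeq2 called 80, 18 and 59. TCP1 was at 6.06 CPM in WT and 3.64 CPM in quintuple at 3 weeks and at 1.78 and 6.66 CPM at 5 weeks, and the log2 effect at 5 weeks was 2.65 above that at 3 weeks (adjusted p = 0.000276). The effect at 3 weeks alone was not called (adjusted p = 0.332). For SPL4 the difference was 3.46 (adjusted p = 0.00915). Both passed in the 12 alternatives that could be run. The difference from 3 weeks was 2.14 for FUL (adjusted p = 0.255) and 0.16 for FD (adjusted p = 0.944), and neither passed.

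The authors' deposited table of the same comparison lists 735 genes, 104 higher and 631 lower in quintuple, with adjusted p under 0.01 and a change above 2-fold. Of the 734 of these that were tested here, all had the same sign and 580 were called (78.9% of those listed and 43.2% of the calls here). At the thresholds of the authors' deposited table, 321 genes passed here and 298 of them are listed. The log2 fold changes in the authors' deposited table lay within 0.1 of those fitted here for 61 of the 734 genes (8.31%) with all libraries and for 684 (93.2%) without WT replicate 3, and the median absolute differences were 0.362 and 0.0106. Leaving out any other library gave between 44 and 128 genes within 0.1. For BRC1 the authors' deposited table gives 3.65 and the fits here 2.63 with and 3.64 without WT replicate 3, and for XCP1 it gives -1.72 against -1.23 and -1.71. Which libraries entered the deposited table is not given in the sources used here.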

How the data were processed

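Counts of reads per gene, raw and deposited by the authors, were read for 48 columns; TopHat2, SAMtools, HTSeq, DESeq2 and the build TAIR10 are listed without version numbers, per the submitters' processing notes. Whether counting used strand is not given in the sources used here, so overlapping and antisense genes cannot be told apart. The authors also deposited the number of mapped reads per library and a table with a log2 fold change and an adjusted p-value for each gene they listed at 5 weeks.

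Members and gene lists were chosen with earlier results of these data known. Columns were matched to samples by the sample numbers in the labels. One fit in edgeR 4.0.16 (R 4.3.3, TMM, filterByExpr, estimateDisp, robust quasi-likelihood) held 47 libraries in 16 groups. The TMM factors ran from 0.874 to 1.05. DESeq2 1.42.0 was an alternative, as were other size factors, no count filter, the 6 libraries alone, a replicate block, each library left out, and stricter thresholds. On counts simulated for the 5-week comparison over 19217 genes, the step found 84% of genes made to differ 2-fold and 44% of those made to differ 1.5-fold. Of its calls on the simulated counts, 3.61% were wrong. These counts were drawn independently, with no outlying library and no effect shared by replicate number, and the changed genes had a mean of at least 1 CPM. The shares therefore do not give the error rate of the calls on the real data.

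Libraries of the same replicate number deviated together from their group means at 5 weeks (correlations of 0.208, 0.133 and 0.169). Each is over 0.1, so the numbers may pair the libraries. This rests on these data alone, since no label says what a number shares. The fit without the block is the reported one, and its p-values leave any such pairing out. With the replicate block within each week 800 genes were higher and 1132 lower, and 98.1% of the 1342 reported calls were shared.

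Genes named by rule were the mutated loci, the 15 largest rises and falls among called genes without overlap and with a mean of at least 1 CPM, the 10 smallest adjusted p, up to 6 called members of each list and the 5 smallest adjusted p of each difference between weeks. List members that were not called, AGL14, CYP79F1, CYP79B3, MAM1, HB21 and HB53 were named outside this rule, after their values were seen. Names came from RefSeq for 26719 of 27206 genes (98.2%). The windows of 250 bases before each start were read from TAIR10.1, in place of the promoter table foreseen, and motifs were sought on both strands. They were the CArG box and the 3 short cores spelled out beside the windows.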

Additional observations from a re-analysis of the deposited data

Results flagged for a closer look

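The effect of the mutations at 5 weeks differed by test from that at another week in the genes given here, each value being the log2 effect at 5 weeks minus that at the other week with its adjusted p from edgeR. Against 3 weeks the difference was 2.65 for TCP1 (adjusted p = 0.000276) and 3.46 for SPL4 (adjusted p = 0.00915), and both passed under each alternative run. It was -2.06 for AT4G19380, -4.61 for AT1G65500 and -4.83 for AT1G49310 (adjusted p = 0.00915 for each), and these missed the threshold without quintuple replicate 2 (adjusted p = 0.0703), AT1G49310 also without quintuple replicate 3 (adjusted p = 0.0503).

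Against 4 weeks it was 1.13 for GH9B13, an endoglucanase gene of the cell wall (adjusted p = 0.0431), at 444 CPM in WT and 222 CPM in quintuple at 4 weeks and at 192 and 210 CPM at 5 weeks. It did not pass without quintuple replicate 3 (adjusted p = 0.165), without WT replicate 2 (adjusted p = 0.0981) or without replicate 3 of both genotypes (adjusted p = 0.114).

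Against 6 weeks it was -5.46 for the peroxidase gene AT2G38380 (adjusted p = 0.0118), which missed the threshold without quintuple replicate 1 (adjusted p = 0.0534). It was -3.52 for AT1G49450 (adjusted p = 0.0254, up to 0.0906 over the alternatives), 1.18 for AT3G14540 (adjusted p = 0.0478, up to 0.133), 3.42 for FRD3, a citrate transporter of iron nutrition (adjusted p = 0.0478, up to 0.256), and 3.99 for AT3G28960 (adjusted p = 0.0486, up to 0.256).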

How the results depend on the processing

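Over fits that left out 1 library each, higher genes numbered 188 to 657 and lower genes 364 to 1255. The 6 libraries alone gave 93 higher and 93 lower. The replicate block within each week gave 800 higher and 1132 lower, and with the 6 libraries alone it gave 219 higher and 416 lower. Of 88 called genes considered here, the block within each week ended the call of 1, CYP79B3, the block with the 6 libraries alone ended 21 of the 73 it tested, among them BRC1, SOC1, SUR1 and MYB34, and the 6 libraries without it ended 41 of 73. An adjusted p under 0.01 with a change above 2-fold left 89 higher and 232 lower, and a change of at least 2-fold left 139 and 523. RLE size factors, no count filter, DESeq2, all 48 columns and the fit without replicate 3 of both genotypes kept both counts within 1.5 times. So did the fit of the 5-week WT and quintuple libraries alone with WT replicate 3 left out.

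Counts of genes whose effect differed from that at 3 weeks were 2 to 334 with 1 library left out, 25 with RLE size factors, 80 with DESeq2, 141 with the block, 158 without replicate 3 of both genotypes and 38 with all 48 columns. Against 4 weeks they were 0 to 18, 18 with DESeq2, 162 with the block and 3 without both. Against 6 weeks they were 0 to 48, 2 with RLE size factors, 3 with no count filter, 59 with DESeq2, 19 with the block, 13 without both and 2 with all 48 columns. The cause was not tested. Of 83 called genes named by rule, 33 kept the call under every alternative that tested them. With the fits of 5-week WT and quintuple libraries alone set aside, other than the one with the replicate block, 42 kept it. No direction reversed. Genes under about 1 CPM rest on few reads, and a change of 1.5-fold was often missed in simulated counts.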
